A study of Neurospora crassa with 2 samples.

Results

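The genes described here are the well-expressed transcripts of Neurospora crassa mycelium that were moderately higher in a strain lacking the cell wall protein gene ncw-1 than in one that has it. They were chosen by their measured values: a gene had to reach 50 RPKM (reads scaled by gene model length and by the library's total) in at least 1 library, and the log2 of its RPKM + 1 in Δ3βGΔncw-1 divided by that in Δ3βG had to be at least 1 and below 2. The genes deleted in these strains were left out. The rule found 134 of the 9730 genes in the table, which is 6.62% of the 2023 genes that reached 50 RPKM. Because the rule used the only contrast of the series, that share, the ratios and the direction are descriptions of how the genes were picked.

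RNA was sequenced from 1 culture library of each of 2 genotypes. Δ3βGΔncw-1 carries deletions of ncw-1 and of gh1-1, gh3-3 and gh3-4, which encode β-glucosidases, and Δ3βG carries the 3 β-glucosidase deletions without that of ncw-1. Mycelia of both were precultured for 20 h in a medium labelled MM and then kept for 4 h in Vogel's salts with 1% cellobiose, and an a closes the genotype label of each. With 1 library per genotype no test between genotypes was possible and no difference has a replicate check. The number of isolates behind a genotype is not given in the labels.

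Neurospora crassa is a filamentous ascomycete that grows on plant remains. Cellobiose, the disaccharide of cellulose, enters its hyphae through cellodextrin transporters, is cut to glucose by β-glucosidases, and acts as a signal that switches on cellulase genes by way of the zinc cluster factors CLR-1 and CLR-2. In a strain without the main β-glucosidases, cellobiose is cut slowly and the signal lasts longer. The members that carry a gene symbol are described below by role, from sugar use and storage through clock output and the cell wall to signalling and membrane transport.

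The 2 libraries were scaled to 20019350 reads in Δ3βGΔncw-1 and 20510798 reads in Δ3βG, totals recovered from the values. The level of ncw-1 was 2.62 RPKM in Δ3βGΔncw-1 and 435 RPKM in Δ3βG, as the labels require, and gh1-1, gh3-3 and gh3-4 had 0.350 to 3.41 RPKM in Δ3βGΔncw-1 and 0.342 to 1.09 RPKM in Δ3βG. The libraries also differed in mating-type transcripts. The 4 mat A markers summed to 103.7 RPKM in Δ3βGΔncw-1, with matA-2 at 0, and were all listed at 0 in Δ3βG, while the mat a pheromone gene mfa-1 had 34.98 RPKM in Δ3βGΔncw-1 and 141 RPKM in Δ3βG. Transcripts of both mating types were thus listed in the Δ3βGΔncw-1 library, although an a closes the genotype label of both libraries. Read as a mating type, that a is at odds with the mat A transcripts. The effect of ncw-1 and that of the mating-type difference cannot be told apart. Of 7 markers of conidia and aerial hyphae, 4 were lower by 2-fold or more in Δ3βGΔncw-1 and 0 were higher by that much, and they summed to 2523 RPKM in Δ3βGΔncw-1 and 61288 RPKM in Δ3βG, of which eas gave 1746 RPKM in Δ3βGΔncw-1 and 60350 RPKM in Δ3βG. The perithecial gene app had 4.88 RPKM in Δ3βGΔncw-1 and 969 RPKM in Δ3βG. The part of these differences in the members' values was not tested, and in bulk RNA fewer cells of a type and less RNA per cell cannot be told apart. The median gene that reached 10 RPKM had a log2 ratio of −0.32, so each member stood 0.32 further above the median gene than its ratio shows.

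In level, the members covered more than 2 orders of magnitude. Their median was 100.5 RPKM in Δ3βGΔncw-1 and 35.8 RPKM in Δ3βG, and their quartiles were 66.9 and 238.5 RPKM in Δ3βGΔncw-1 and 25.8 and 93.3 RPKM in Δ3βG. There were 51 members that reached 50 RPKM in both libraries. The other 83 reached it only in Δ3βGΔncw-1, so the minimum itself fixed their direction. The minimum and the upper edge of the ratio together also kept out genes barely detected in Δ3βG, so their absence is not a finding. The lowest level in Δ3βG was 13.7 RPKM, at NCU02008, against 52.0 RPKM in Δ3βGΔncw-1. In reads, the members had 425 to 159841 in Δ3βGΔncw-1 and 115 to 71723 in Δ3βG. All members together held 8.99% of the summed RPKM of the Δ3βGΔncw-1 library and 3.76% of that of the Δ3βG library.

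Within the window, most members sat near its lower side. The median log2 ratio was 1.34, with 85 members below 1.5 and 49 at 1.5 or above, and the median over all 2023 genes at the same minimum was −0.21. As a plain ratio of RPKM the members ran from 2.03 to 4.09, with a median of 2.58. The 95% counting interval of the ratio, an exact interval from recovered reads that holds no variation between cultures, lay wholly between 2 and 4 for 114 members. It reached below 2 for 10 members, of which mig-9 had the lowest bound, at 1.89, and it reached 4 or more for the other 10. Along the level scale the median ratio was 2.29 among the 17 members with at least 500 RPKM in Δ3βGΔncw-1, 2.65 among the 51 with 100 to 500 RPKM and 2.53 among the 66 below 100 RPKM.

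**Figure D1:**
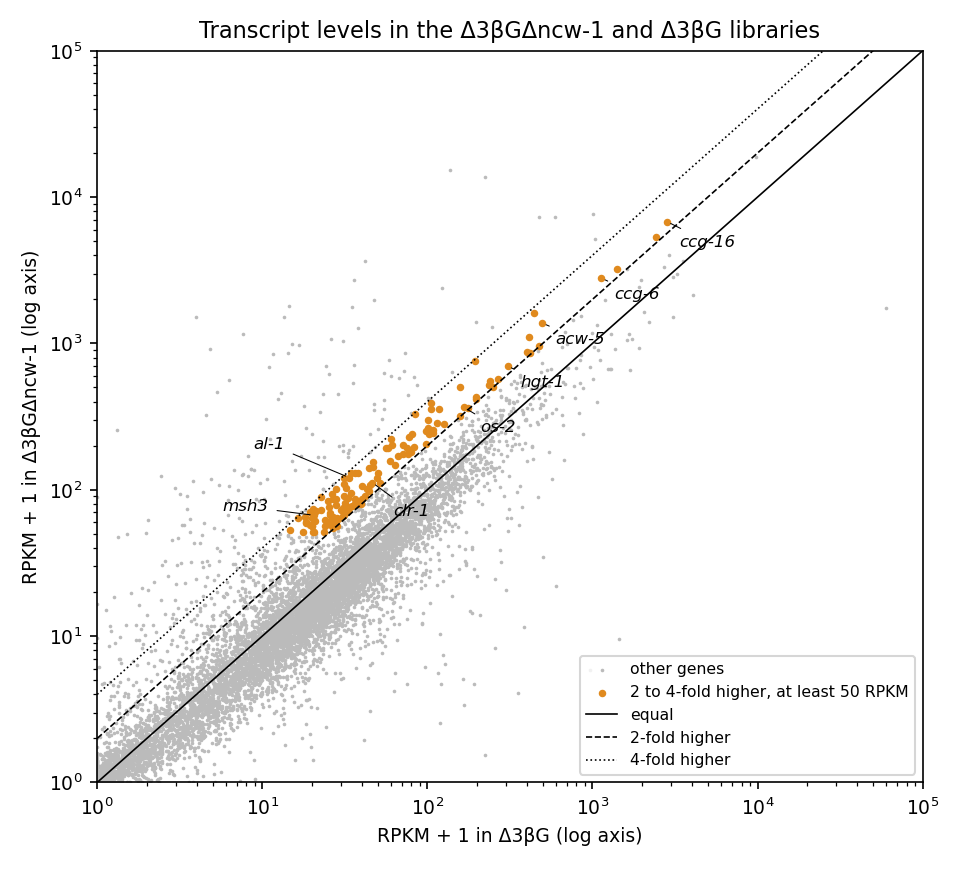
Each point is a gene, with RPKM + 1 in Δ3βGΔncw-1 on the vertical axis and in Δ3βG on the horizontal axis, both on log scales. Orange points are the 134 members, grey points the other genes except the 4 deleted ones, and the lines mark equal levels and 2-fold and 4-fold higher levels in Δ3βGΔncw-1. The members form a band between the 2 upper lines that starts at 50 RPKM in Δ3βGΔncw-1 and ends at ccg-16.

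The edges of the window cut through a continuous run of genes. Just inside the lower edge were mig-9 (NCU09141), with 55.7 RPKM in Δ3βGΔncw-1 and 27.2 RPKM in Δ3βG, and NCU09599, with 79.4 RPKM in Δ3βGΔncw-1 and 38.9 RPKM in Δ3βG. Just outside it were the GH2 family gene gh2-2 (NCU05956), with 142 RPKM in Δ3βGΔncw-1 and 70.9 RPKM in Δ3βG, and NCU05062, with 80.4 RPKM in Δ3βGΔncw-1 and 40.0 RPKM in Δ3βG. At the upper edge, ccg-13 (log2 ratio 1.98) and NCU04910 (1.97) were the last inside, and NCU10051 (2.003) and NCU01140 (2.01) the first outside. Other members near the upper edge had no symbol. NCU05789 had 328 RPKM in Δ3βGΔncw-1 and 83.2 RPKM in Δ3βG, NCU02596 had 222 RPKM in Δ3βGΔncw-1 and 59.6 RPKM in Δ3βG, and NCU08164 had 63.4 RPKM in Δ3βGΔncw-1 and 15.5 RPKM in Δ3βG, the largest plain ratio of all (4.09-fold, 3.69 to 4.54). Around the minimum level, NCU07129 entered with 50.4 RPKM in Δ3βGΔncw-1 and 16.6 RPKM in Δ3βG, and NCU09525 stayed out with 49.2 RPKM in Δ3βGΔncw-1 and 20.3 RPKM in Δ3βG.

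A few abundant transcripts made up much of the members' total. The 5 most abundant held 44.6% of the members' RPKM in Δ3βGΔncw-1 and 46.3% in Δ3βG. The highest was ccg-16 (NCU05495), a clock-controlled gene, with 6803 RPKM in Δ3βGΔncw-1 and 2825 RPKM in Δ3βG (2.41-fold, 95% counting interval 2.38 to 2.44). NCU04951 came next, with 5312 RPKM in Δ3βGΔncw-1 and 2423 RPKM in Δ3βG, and NCU03600 had 3216 RPKM in Δ3βGΔncw-1 and 1408 RPKM in Δ3βG. These IDs have no symbol in the reference table, and neither do 106 of the 134 members. The clock-controlled gene ccg-6 (NCU01418) had 2792 RPKM in Δ3βGΔncw-1 and 1132 RPKM in Δ3βG (2.47-fold, 2.44 to 2.49). NCU08055 had 1611 RPKM in Δ3βGΔncw-1 and 442 RPKM in Δ3βG (3.64-fold, 3.55 to 3.74), the largest ratio among the 10 most abundant members. The others of these 10 were acw-5, NCU09175, NCU07027, NCU01200 and NCU08093, with between 865 and 1376 RPKM in Δ3βGΔncw-1 and between 401 and 497 RPKM in Δ3βG.

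For every count of a pathway list below, the background is the 8220 genes that reached 1 RPKM in either library. In the lists, higher and lower mean a difference of 2-fold or more in RPKM + 1, without a test. By that measure 7.07% of the 8220 genes were higher in Δ3βGΔncw-1 and 10.3% lower, and the median log2 ratio was −0.31. Of the genes that differed this much, 40.8% were on the higher side, and 67.3% when ratios were taken relative to the median gene. Of 17 lists, 8 held a member and the other 9 did not. Those 9 covered the respiratory chain and ATP synthase, amino acid synthesis, sterol and fatty acid synthesis, vacuolar and plasma membrane ATPases, mitochondrial import, cytosolic ribosomal proteins, secretion and folding, nitrogen use, and heat shock. Their median log2 ratios lay between −0.36 and 0.14, 7 of them had 0 higher genes, and amino acid synthesis had 3 higher and 6 lower of 65 and nitrogen use 1 higher and 1 lower of 7. A further 9 lists were drawn up after the members had been seen, from the symbols they carry, so a member in each of those is a matter of choice. They covered osmosensing, glycogen and trehalose, hyphal fusion, cation transporters and pumps, mismatch repair, polyketide synthases, carotenoid synthesis, amino acid permeases and mig genes. The lists hold 20 of the 134 members (14.9%) and 192 of the 2023 genes at the same minimum (9.49%), leaving aside the 9 later lists. The 17 lists were themselves drawn up with earlier results of these data known, and some members were entered by locus tag. Part of the gap between these shares may thus come from the choice of genes, and it carries no test.

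The list of sugar transporters and that of glycolysis and fermentation held 3 members each. The glucose transporter gene hgt-1 (NCU10021) had 699 RPKM in Δ3βGΔncw-1 and 305 RPKM in Δ3βG (2.29-fold, 2.24 to 2.33). Also on the sugar transporter list, entered there by locus tag alone, were NCU04963, with 193 RPKM in Δ3βGΔncw-1 and 54.9 RPKM in Δ3βG (3.52-fold, 3.36 to 3.68), and NCU09287, with 416 RPKM in Δ3βGΔncw-1 and 197 RPKM in Δ3βG (2.11-fold, 2.04 to 2.17). Each of the 3 was well expressed in both libraries. Of 14 measured genes of that list 9 were higher, 6 of them 4-fold or more and so above the window, and 1 was lower (median log2 ratio 1.49).

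In glycolysis, the breakdown of glucose to pyruvate, the aldolase gene fba (NCU07807) had 575 RPKM in Δ3βGΔncw-1 and 265 RPKM in Δ3βG (2.17-fold, 2.12 to 2.21). The gene of phosphoglycerate kinase, pgk (NCU07914), which makes ATP lower in the pathway, had 279 RPKM in Δ3βGΔncw-1 and 124 RPKM in Δ3βG (2.24-fold, 2.17 to 2.31), and NCU00575, listed by locus tag, had 195 RPKM in Δ3βGΔncw-1 and 82.1 RPKM in Δ3βG (2.37-fold, 2.30 to 2.44). Below the window stood further steps of the pathway. The glyceraldehyde phosphate dehydrogenase gene gpd-1 (NCU01528) had 1985 RPKM in Δ3βGΔncw-1 and 1194 RPKM in Δ3βG, and the enolase gene emp-7 (NCU10042) had 585 RPKM in Δ3βGΔncw-1 and 364 RPKM in Δ3βG. In all, 4 of 9 measured glycolysis and fermentation genes were higher and 0 lower, with a median log2 ratio of 0.76. Relative to the median gene 8 of the 9 were higher, beside 10.3% of the 8220 genes by the same measure. Of these, gpi-1, gpd-1, ace-8 and emp-7 passed narrowly, with log2 ratios to the median gene of 1.08, 1.05, 1.04 and 1.004.

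The acetyl-CoA synthetase gene acu-5 (NCU06836), which activates acetate, had 64.8 RPKM in Δ3βGΔncw-1 and 29.95 RPKM in Δ3βG (2.16-fold, 2.04 to 2.29). Of 7 acetate, gluconeogenesis and glyoxylate genes it was the one that was higher, whereas 4 were lower, and the median log2 ratio was −1.58. A pair of members builds glycogen, the glucose store of the hypha. The glycogen synthase gene gsy-1 (NCU06687) had 251 RPKM in Δ3βGΔncw-1 and 97.1 RPKM in Δ3βG (2.59-fold, 2.51 to 2.66), and the gene of glycogenin, gnn (NCU06698), whose product primes the chain, had 244 RPKM in Δ3βGΔncw-1 and 106.5 RPKM in Δ3βG (2.29-fold, 2.22 to 2.36). These levels were close to each other in both libraries. The glycogen and trehalose list took only genes with a symbol and held no gene of glycogen breakdown. Members without a symbol were not assigned to this role. The trehalase genes, which break down the other storage sugar, were not higher, with 18.3 RPKM in Δ3βGΔncw-1 and 20.1 RPKM in Δ3βG for tre-1 (NCU00943) and 45.7 RPKM in Δ3βGΔncw-1 and 84.1 RPKM in Δ3βG for tre-2 (NCU04221).

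The list of clock, light and conidiation genes held 5 members, of which NCU05429 has no symbol or annotation here that gives its role. Besides ccg-16 and ccg-6, ccg-13 (NCU08907, also named ncw-7) had 88.3 RPKM in Δ3βGΔncw-1 and 21.7 RPKM in Δ3βG, a plain ratio of 4.07 (3.69 to 4.50) that the added 1 RPKM brings inside the window. NCU05429, entered by locus tag, had 254 RPKM in Δ3βGΔncw-1 and 107 RPKM in Δ3βG (2.37-fold, 2.30 to 2.44). The phytoene desaturase gene al-1 (NCU00552), of carotenoid synthesis, had 119.9 RPKM in Δ3βGΔncw-1 and 32.7 RPKM in Δ3βG (3.66-fold, 3.46 to 3.88). The other carotenoid genes had smaller or opposite differences. Of those, al-2 (NCU00585) had 61.7 RPKM in Δ3βGΔncw-1 and 44.8 RPKM in Δ3βG, ylo-1 (NCU04013) 103 RPKM in Δ3βGΔncw-1 and 128 RPKM in Δ3βG, and al-3 (NCU01427) 99.1 RPKM in Δ3βGΔncw-1 and 235 RPKM in Δ3βG. Among 30 measured clock, light and conidiation genes, 8 were higher and 6 lower, with a median log2 ratio of 0.13. The 8 include ccg-4, a mat A pheromone gene, and the 6 include the 4 lower conidial markers. The clock-controlled gene ccg-1 (NCU03753), with 18716 RPKM in Δ3βGΔncw-1 and 9729 RPKM in Δ3βG, was just below the window at a log2 ratio of 0.94.

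Cell wall genes gave 4 members, including ccg-13. The anchored cell wall protein gene acw-5 (NCU07776) had 1376 RPKM in Δ3βGΔncw-1 and 497 RPKM in Δ3βG (2.77-fold, 2.72 to 2.82). NCU09175, on the list by locus tag, had 1103 RPKM in Δ3βGΔncw-1 and 410.0 RPKM in Δ3βG (2.69-fold, 2.63 to 2.76). The gene ncw-2 (NCU01752), of the same non-anchored class of cell wall protein as the deleted ncw-1, had 76.1 RPKM in Δ3βGΔncw-1 and 31.0 RPKM in Δ3βG (2.45-fold, 2.32 to 2.60). Most cell wall genes were not in this range. Of 28 measured, 6 were higher, 4 lower and 18 neither, and their median log2 ratio was −0.36, next to −0.31 for all genes. Of the 6 higher genes, 2 were 4-fold or more higher and so above the window, acw-8 and acw-12. Of the other non-anchored genes, ncw-3, ncw-4 and ncw-5 had log2 ratios of 0.49, −0.24 and 0.41, and ncw-6 one of −1.05.

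The glycoside hydrolase list gave 3 of the 134 members and 30 of the 2023 genes at the same minimum. The list of regulators of plant cell wall degradation gave 1 of the members and 7 of those 2023 genes. The activator gene clr-1 (NCU07705) had 111 RPKM in Δ3βGΔncw-1 and 45.3 RPKM in Δ3βG (2.45-fold, 2.36 to 2.54). Its partner clr-2 and the regulator genes xlr-1 and vib-1 stood above the window, at 4-fold or more, and of 8 regulators 4 were higher and 1 lower, with a median log2 ratio of 0.87. The β-glucosidase gene gh3-5 (NCU05577), which is intact in both strains, had 69.6 RPKM in Δ3βGΔncw-1 and 31.4 RPKM in Δ3βG (2.21-fold, 2.10 to 2.34). The GH2 family gene gh2-3 (NCU00810) had 78.7 RPKM in Δ3βGΔncw-1 and 35.5 RPKM in Δ3βG (2.22-fold, 2.12 to 2.32), and gh28-2 (NCU06961), of the pectin-cutting family GH28, had 50.6 RPKM in Δ3βGΔncw-1 and 19.2 RPKM in Δ3βG (2.63-fold, 2.41 to 2.88). These 3 were at modest levels. Of 72 measured glycoside hydrolase genes by symbol, 31 were higher, 25 of them 4-fold or more, while 5 were lower, and the median log2 ratio was 0.64.

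**Figure D2:**
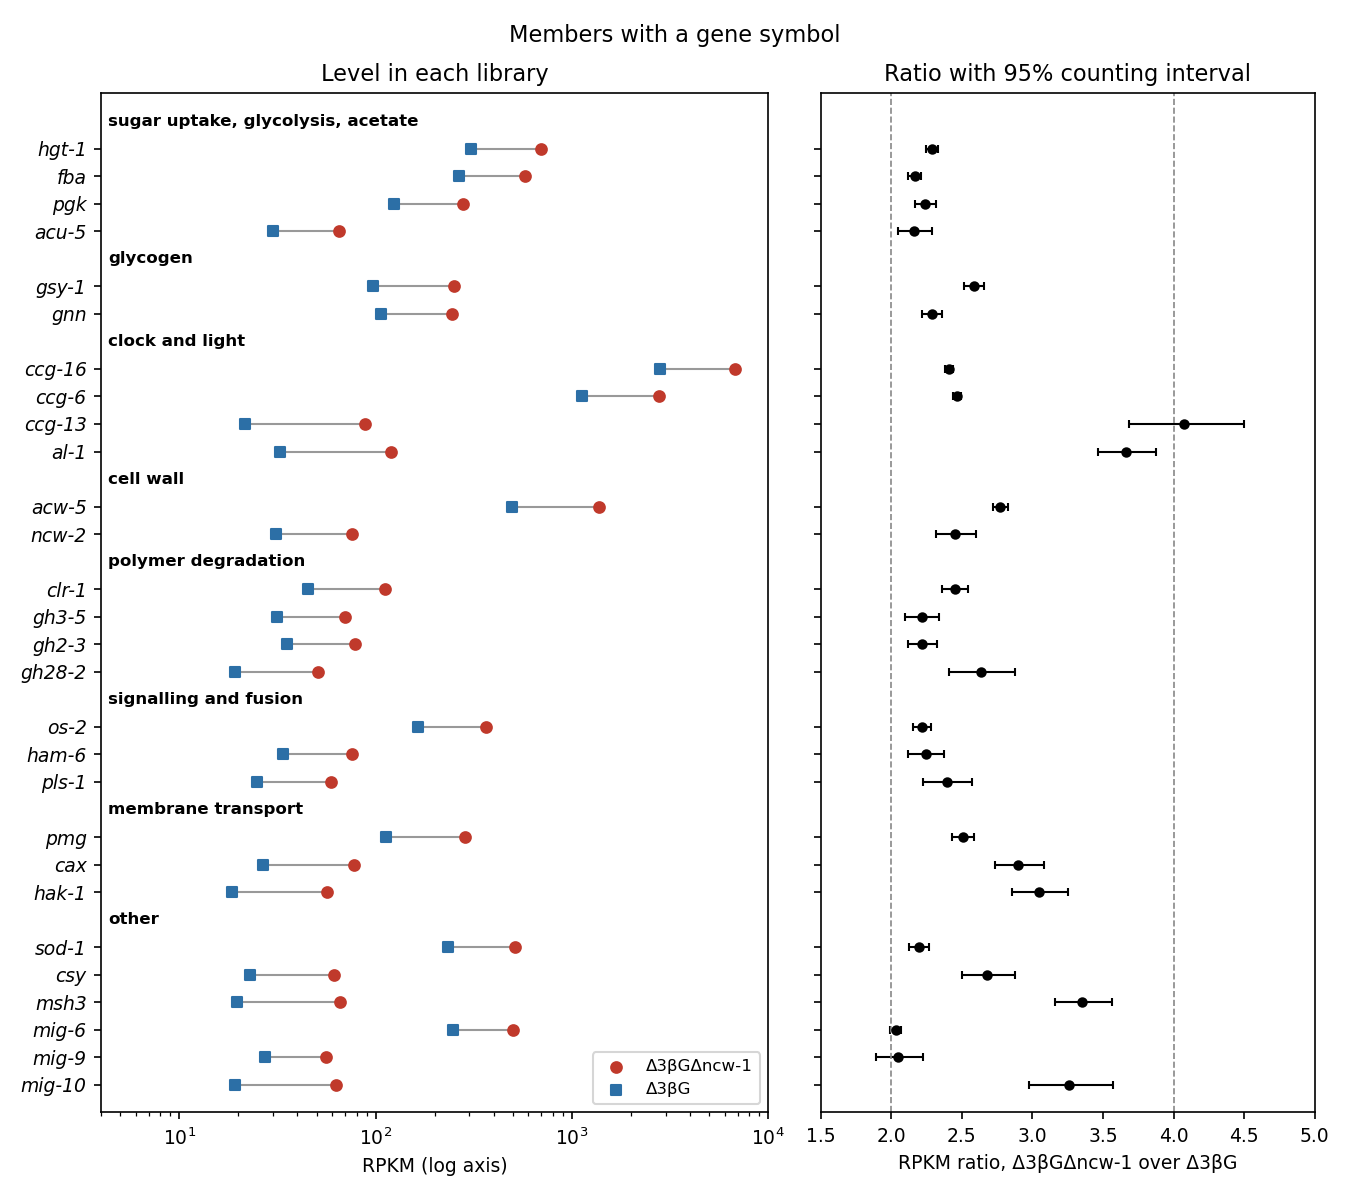
On the left, the RPKM of the 28 members with a gene symbol is plotted on a log axis, with red circles for Δ3βGΔncw-1 and blue squares for Δ3βG, grouped by role. On the right is the RPKM ratio of each, Δ3βGΔncw-1 over Δ3βG, with bars for the 95% counting interval and dashed lines at 2 and 4. Most ratios lie between 2 and 3, and al-1 (3.66), msh3 (3.35), mig-10 (3.26), hak-1 (3.05) and ccg-13 (4.07) lie above.

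Signalling and cell fusion genes entered singly. The gene os-2 (NCU07024), which encodes the mitogen-activated kinase of the osmosensing pathway, had 365 RPKM in Δ3βGΔncw-1 and 165 RPKM in Δ3βG (2.22-fold, 2.15 to 2.28). The genes of the kinases and phosphorelay proteins above it in the pathway had smaller or negative log2 ratios, which were 0.33 for hpt-1, −0.17 for os-5, −0.37 for os-1, −0.49 for rrg-1 and −0.70 for os-4. Of the hyphal fusion genes, ham-6 (NCU02767) had 76.0 RPKM in Δ3βGΔncw-1 and 33.8 RPKM in Δ3βG (2.25-fold, 2.12 to 2.38). Of 13 measured it was the one past 2-fold, though ham-8 (log2 ratio 0.96) and ham-9 (0.88) came close, with a median log2 ratio of 0.088 over the list. The tetraspanin gene pls-1 (NCU07432) had 59.3 RPKM in Δ3βGΔncw-1 and 24.8 RPKM in Δ3βG (2.39-fold, 2.22 to 2.57).

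Membrane transport of other solutes was represented by 3 symbols. The general amino acid permease gene pmg (NCU03509) had 285 RPKM in Δ3βGΔncw-1 and 114 RPKM in Δ3βG (2.51-fold, 2.43 to 2.59). The calcium/proton exchanger gene cax (NCU07075) had 77.6 RPKM in Δ3βGΔncw-1 and 26.8 RPKM in Δ3βG (2.90-fold, 2.73 to 3.08), and the potassium transporter gene hak-1 (NCU00790) had 56.2 RPKM in Δ3βGΔncw-1 and 18.5 RPKM in Δ3βG (3.05-fold, 2.86 to 3.25). In each library pmg had the highest level of the 3, and cax and hak-1 were nearer to each other. Among 14 measured cation transporters and pumps, cax and hak-1 were the 2 that were higher, and the potassium transporter gene trk (NCU06449) was the 1 that was lower, with 2.18 RPKM in Δ3βGΔncw-1 and 6.95 RPKM in Δ3βG. The median log2 ratio of that list was −0.37. Among 4 amino acid permease genes, pmg was the one past 2-fold, and mtr (NCU06619), for neutral amino acids, had 49.5 RPKM in Δ3βGΔncw-1 and 26.2 RPKM in Δ3βG.

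The remaining members with a symbol had separate roles. The copper-zinc superoxide dismutase gene sod-1 (NCU02133) had 516 RPKM in Δ3βGΔncw-1 and 235 RPKM in Δ3βG (2.20-fold, 2.13 to 2.27), and sod-2 (NCU01213), another superoxide dismutase gene, had 39.7 RPKM in Δ3βGΔncw-1 and 49.9 RPKM in Δ3βG. Of 8 oxygen radical enzymes, 2 were higher and 0 lower, with a median log2 ratio of 0.34. The type III polyketide synthase gene csy (NCU04801) had 61.3 RPKM in Δ3βGΔncw-1 and 22.9 RPKM in Δ3βG (2.68-fold), and pks-3 (NCU04865), the one other of 5 polyketide synthase genes to differ by 2-fold or more, had 3.20 RPKM in Δ3βGΔncw-1 and 62.2 RPKM in Δ3βG. The 3 mig genes completed the set with a symbol. Of these, mig-6 (NCU09285) had 502 RPKM in Δ3βGΔncw-1 and 247 RPKM in Δ3βG, mig-10 (NCU04791) had 62.9 RPKM in Δ3βGΔncw-1 and 19.3 RPKM in Δ3βG, and mig-9 is given above. Among the 10 measured genes of the mig list, drawn up after the members had been seen, these 3 were higher and 0 were lower. The median log2 ratio of that list was 0.037.

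The DNA mismatch repair gene msh3 (NCU08115) had 65.9 RPKM in Δ3βGΔncw-1 and 19.7 RPKM in Δ3βG (3.35-fold, 3.16 to 3.56). Of 7 measured mismatch repair genes msh3 was the 1 that was higher and pms-1 the 1 that was lower. The log2 ratio was −1.50 for pms-1, −0.89 for msh6 and −0.83 for mlh-1, and msh4 (NCU10895), at 2.71 RPKM in Δ3βGΔncw-1 and 0.960 RPKM in Δ3βG, had one of 0.92. In gene order msh3 lies next to the cellodextrin transporter gene cdt-2 (NCU08114), which had 7276 RPKM in Δ3βGΔncw-1 and 476 RPKM in Δ3βG. Whether reads were counted by strand is not stated, reads of overlapping neighbours may therefore be mixed, and the part of cdt-2 in the msh3 value was not tested.

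**Figure D3:**
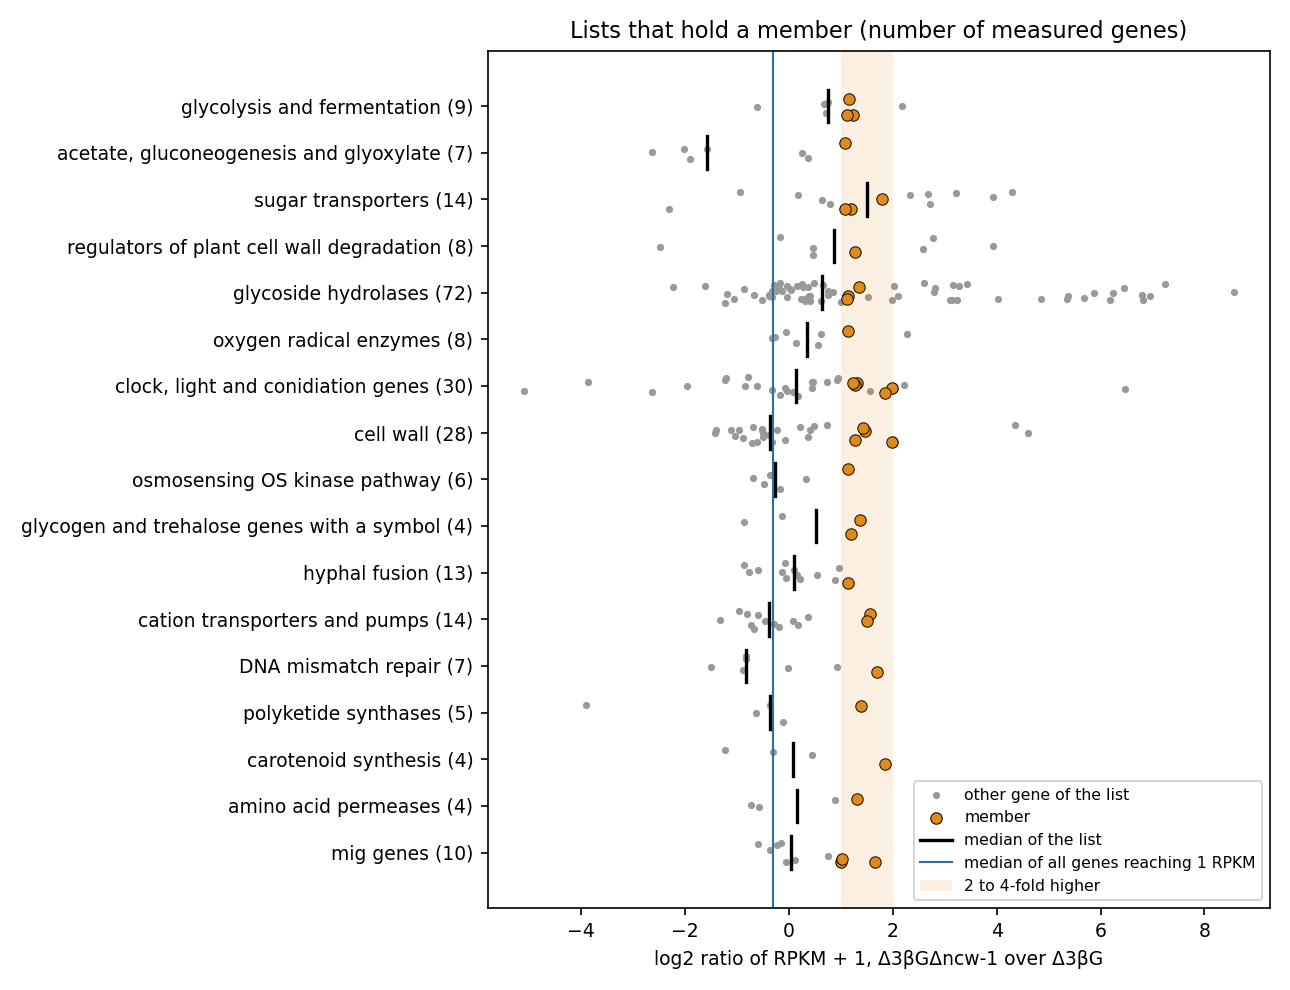
Each grey point is a measured gene of a list, placed by the log2 of RPKM + 1 in Δ3βGΔncw-1 divided by that in Δ3βG, and orange points are members; black ticks are list medians. The blue line marks the median of all genes that reached 1 RPKM (−0.31), and the shaded band is the window of the rule. The median of the sugar transporters (1.49) lies to the right of the line. That of the acetate, gluconeogenesis and glyoxylate genes (−1.58) lies to the left, and both lists have genes on either side. Other genes lie further right than members on the lists of sugar transporters, glycolysis, regulators, glycoside hydrolases, oxygen radical enzymes, clock and cell wall genes.

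Position in the genome was not part of the rule, although the neighbours' values come from the same 2 libraries, so the counts here carry no test. There were 12 members with another member as the next gene on either side (8.96% of 134), in 6 pairs, and 51 of 1888 other matched genes at the 50 RPKM minimum had a member beside them (2.70%). The pairs were sod-1 with NCU02134, os-2 with NCU07027, NCU08092 with NCU08093, NCU02479 with NCU02480, NCU04909 with NCU04910, and NCU07932 with NCU07933. In the pair with sod-1, NCU02134 had 157 RPKM in Δ3βGΔncw-1 and 58.5 RPKM in Δ3βG. Beside os-2, NCU07027 was the more abundant gene, with 960.0 RPKM in Δ3βGΔncw-1 and 473 RPKM in Δ3βG. NCU04910 had one of the largest ratios of all members, with 763 RPKM in Δ3βGΔncw-1 and 193 RPKM in Δ3βG (3.95-fold, 3.84 to 4.05), next to NCU04909 with 130 RPKM in Δ3βGΔncw-1 and 37.0 RPKM in Δ3βG. Both genes of that pair were thus in the upper part of the window. NCU08092 had 299.6 RPKM in Δ3βGΔncw-1 and 100.3 RPKM in Δ3βG, next to NCU08093 at 865 RPKM in Δ3βGΔncw-1 and 419 RPKM in Δ3βG. The genes of the pair NCU07933 and NCU07932 were alike in level, with 101 and 94.5 RPKM in Δ3βGΔncw-1 and 31.1 and 33.6 RPKM in Δ3βG.

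A gene at least 4-fold higher, itself reaching 50 RPKM, lay next to 13 members (9.70%) and to 50 of the 1888 other genes (2.65%). Besides cdt-2 beside msh3, these included lytic polysaccharide monooxygenase genes, whose products cut cellulose by oxidation. NCU00835, with 62.9 RPKM in Δ3βGΔncw-1 and 27.2 RPKM in Δ3βG, lies next to gh61-7, with 1518 RPKM in Δ3βGΔncw-1 and 12.5 RPKM in Δ3βG. Next to NCU03329, with 58.3 RPKM in Δ3βGΔncw-1 and 25.97 RPKM in Δ3βG, lies gh61-6, with 167 RPKM in Δ3βGΔncw-1 and 22.8 RPKM in Δ3βG. Further such members were NCU05899, beside NCU05897 of the sugar transporter list, and NCU09523, beside NCU09524. A gene 2-fold or more lower, itself reaching 50 RPKM, lay next to 6 members (4.48%) and 103 of the other genes (5.46%). The median log2 ratio of the 162 neighbours that were not members and reached 10 RPKM was −0.051, and that of all 5988 genes at 10 RPKM was −0.32.

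Deleted loci adjoined 2 members. NCU04951, the second most abundant member, is next to gh3-4, and NCU00132, with 85.8 RPKM in Δ3βGΔncw-1 and 39.1 RPKM in Δ3βG, is next to gh1-1. Both of these β-glucosidase genes are deleted in both strains, and neither reached 4 RPKM in either library. Within 2 genes of 18 members (13.4%) and 81 of the 1888 other genes (4.29%) lay a gene at least 4-fold higher reaching 50 RPKM. Among these members NCU07192, 2 genes away from gh6-3 of the cellulase family GH6, had 388 RPKM in Δ3βGΔncw-1 and 104 RPKM in Δ3βG (3.74-fold, 3.64 to 3.84). The gene gh6-3 had 2725 RPKM in Δ3βGΔncw-1 and 34.8 RPKM in Δ3βG, while NCU07191 between them had a log2 ratio of 0.82, below the window.

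**Figure D4:**
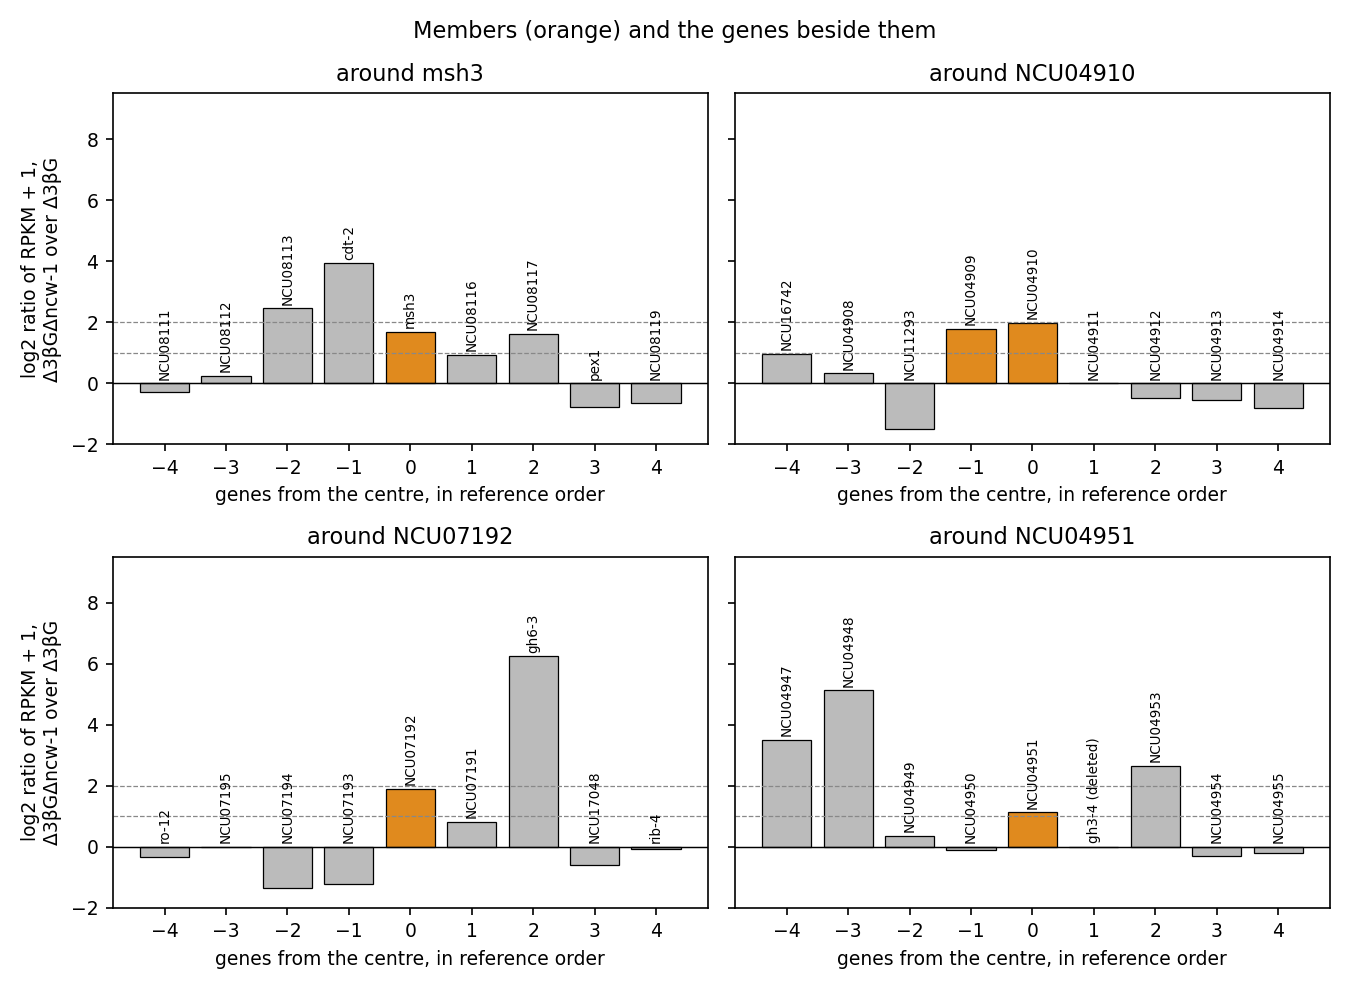
Bars give log2 of RPKM + 1 in Δ3βGΔncw-1 divided by that in Δ3βG, for the 4 genes on either side of msh3, NCU04910, NCU07192 and NCU04951 in the gene order of the reference table, with members in orange, other genes in grey and dashed lines at 1 and 2. Beside msh3 (1.70) stands cdt-2 (3.93), beside NCU04910 (1.97) its neighbour NCU04909 (1.78), and 2 genes from NCU07192 (1.89) stands gh6-3 (6.25). NCU04951 (1.13) adjoins the deleted gh3-4.

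Set beside the genes at the same minimum that were 4- to 16-fold higher (80 genes) or 2- to 4-fold lower (160 genes), the members had a like share of symbols, 20.9% against 21.2% and 17.5%, and 22.9% over all 2023 genes. Their median gene model, where recovery gave a single length, was 1987 bases, against 2207 and 2367 bases and 2157 bases over all. The lists were also counted in these classes, which leave out genes 16-fold or more higher and genes 4-fold or more lower. Among those left out were acw-8 (log2 ratio 4.61), acw-12 (4.35), ccg-4 (6.47) and gh6-2 (6.80), and on the lower side eas (−5.11) and gh47-5 (−2.23). The clock, light and conidiation list counted 5 among the members, 0 among the 4- to 16-fold higher genes and 1 among the lower ones. It counted 20 among all 2023 genes. The cell wall list counted 4, 0 and 3, and 22 among all 2023. Glycoside hydrolase genes counted 3, 6 and 0, and 30 among all. Regulators of plant cell wall degradation counted 1, 3 and 0, and 7 among all, and sugar transporters 3, 4 and 0, and 10 among all. These counts are small, the classes differ in size, and differences between classes were not tested.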

How the data were processed

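The authors deposited RPKM values per the file headers, 1 column per library. TopHat2 2.0.8b, HTSeq 0.5.4p2 and DESeq 1.5.1 are named in the submitters' processing notes, without a role. Not given in the sources used here were build, annotation and strand setting. Reads of near-identical gene copies may be split between them. Columns were matched to libraries by sample identifier, and 0 went unused. With 1 library per genotype nothing was tested; log2 ratios are of RPKM + 1, which understates the change of low genes.

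Of 9730 loci, 9729 matched the RefSeq table of assembly NC12, used for symbols, gene order and spans. Library totals and whole reads were recovered from the RPKM steps and the spans, taking as whole what lay within 1e-06 reads plus 1e-09 of the number, and a model of at least 50% of the span. This worked for all 9264 matched genes above 0, and for 119 of the 134 members with a single solution; otherwise the smallest was used. Clopper-Pearson 95% intervals of each ratio are conditional on summed reads and cover counting error only. They treat reads as independent molecules, which reads are not, so they may be too narrow even for that. Recovery was tested on simulated data. Scripts ran in Python 3.11.15 with scipy 1.17.1.

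Members and lists were chosen with earlier results of these data known. Named are all members with a symbol, the 10 most abundant, those at the edges of the rule, those on a list and those next to a member; neighbours and further genes of a list were named after their values were seen. Promoters, protein sequences and product names were not analysed here. A further gene of the mismatch repair list is not reported here.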

Additional observations from a re-analysis of the deposited data

How the results depend on the processing

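No paired analysis was possible because each genotype has 1 library, and for the same reason no library could be left out. The rule's 134 genes became 209 with a minimum of 25 RPKM, 68 with 100 RPKM and 213 with trimmed mean scaling, of which 100 were among the 134; by construction, a lower minimum admits more genes. Requiring 50 RPKM in both libraries, a choice made after seeing the data, left 51. The count stayed within 1.5 times (114 to 188) with pseudocounts of 0.1 and 5 RPKM, equal sums, median centring, which kept 101 of the 134, and counting intervals wholly inside 2 to 4. For the same members the median log2 ratio of 1.34 became 1.66 with median centring and 1.66 with trimmed mean scaling, which shift every gene by about 0.32, and lay between 1.26 and 1.37 otherwise. The members' share of summed RPKM was 9.54% in Δ3βGΔncw-1 and 3.96% in Δ3βG at 25 RPKM, and 8.07% in Δ3βGΔncw-1 and 3.39% in Δ3βG at 100 RPKM. Members with a member nearby numbered 20 when the next 2 genes on either side were counted. The 28 members with a symbol kept log2 ratios between 0.915 and 2.30 under 5 alternatives, and 2 of them dropped below 2-fold with a pseudocount of 5 RPKM and 2 with equal sums. Alternatives on promoter motifs and protein starts were not run, since no sequences were used here. The members had 115 reads or more in each library, and variation between cultures could not be measured.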
